A study of Mus musculus with 8 samples.

Results

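Chad and Acsf2 are 2 of the 24346 gene symbols with an expression value in these libraries, and they were picked by name because Acsf2 covers Chad on the opposite strand. Chad was chosen because it rose with red blood cells (RBCs), so its values are given as a description without a test, and Acsf2 was asked whether it mirrored that rise. RNA was sequenced from wild-type (WT) primary mouse bone marrow cells in 8 libraries, 2 in each of 4 groups: LSK without RBCs, LSK with RBCs, HSC without RBCs and HSC with RBCs. LSK cells were taken by the Lin-, Sca-1+ and c-Kit+ gate, which holds stem cells together with early progenitors. HSCs, labelled LT-HSC, were the cells of that gate that were also CD48- and CD150+, so the LSK gate includes the HSC gate. Both populations were kept for a day in serum-free medium with cytokines, alone or with RBCs from mouse blood that had been filtered to remove leukocytes and irradiated, and CD45-positive cells were sorted after lysis of the RBCs. The labels give no age, and they do not say whether the 2 libraries of a group came from separate cultures, so each p-value measures the spread between these libraries only.

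Chad encodes chondroadherin, a secreted protein built of leucine-rich repeats that belongs to the small leucine-rich repeat family and is known from cartilage and bone matrix. It binds collagen, and cells attach to it through the integrin alpha2 beta1 and through syndecans at the cell surface. Acsf2 encodes a mitochondrial acyl-CoA synthetase, an enzyme that joins a fatty acid to coenzyme A before the fatty acid is broken down or built into lipids. The products of the genes have no common function known from textbooks, and what they share is their place in the genome.

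In GENCODE M21 (GRCm38), Chad occupies chromosome 11 from 94565047 to 94569127 on the + strand, with 4 exons and a single transcript of 1680 bases. Acsf2 runs on the - strand from 94557102 to 94601871, and its longest transcript has 16 exons and 3154 bases. Chad lay wholly inside the intron of 6391 bases between exons 10 and 11 of that transcript, from 94562919 to 94569309. The exons of Chad and of the 4 annotated Acsf2 transcripts shared 0 bases, and the nearest Acsf2 exon began 179 bases beyond the end of Chad. The start of the longest Acsf2 transcript lay 36824 bases from the start of Chad. A shorter Acsf2 transcript, of 4 exons and 596 bases, started much closer, at 94563897 on the - strand. Between that start and the start of Chad lay 1149 bases. Another, of 3 exons and 337 bases, started at 94570778, beyond the end of Chad.

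**Figure D1:**
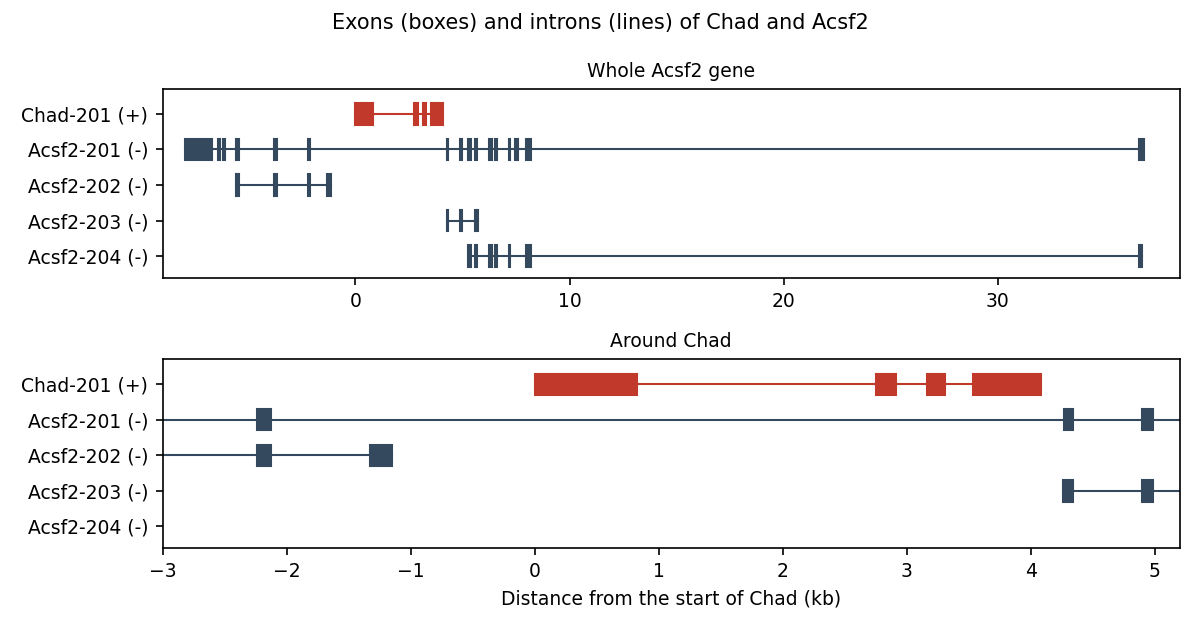
Exons (boxes) and introns (lines) of Chad, in red, and of the 4 Acsf2 transcripts, in blue-grey, by distance in kb from the start of Chad; the lower panel enlarges the part around Chad. Chad sits between exons 10 and 11 of the longest Acsf2 transcript, with 0 exon bases in common.

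The stretches upstream of the starts of Chad and of the longest Acsf2 transcript are shown, because these starts lie far apart. Both come from RefSeq (GRCm38.p6), which had an entry for each of the 2 genes, and capitals mark the matches found on either strand. For Chad, the 250 bases before the start (chr11:94564797-94565046, + strand) are given. For Acsf2, bases 250 to 86 before the RefSeq start (chr11:94601872-94602036, - strand) are given, since the longest GENCODE transcript starts 85 bases before the RefSeq one.
Chad: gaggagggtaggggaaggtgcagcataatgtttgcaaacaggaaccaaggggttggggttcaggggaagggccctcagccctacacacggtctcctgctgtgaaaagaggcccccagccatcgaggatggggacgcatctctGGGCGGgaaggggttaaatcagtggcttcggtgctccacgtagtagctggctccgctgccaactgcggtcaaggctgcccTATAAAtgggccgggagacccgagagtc
Acsf2: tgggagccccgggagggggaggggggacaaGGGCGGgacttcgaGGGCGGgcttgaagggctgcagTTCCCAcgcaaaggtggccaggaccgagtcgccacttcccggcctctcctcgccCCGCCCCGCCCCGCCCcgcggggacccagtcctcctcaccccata

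The windows searched were 300 bases long, from 250 before to 50 after the start, and 7 motifs were looked for on both strands: the TATA box TATAAA, the GC box GGGCGG, the RBPJ core TGGGAA, the N-box CACNAG and the class C site CACGCG known for Hes-type repressors, the E-box CACGTG and the AP-1 site TGANTCA. The Chad window held TATAAA once, at bases 28 to 23 before the start on the strand of the gene. Of all 32851 windows, 13.6% held TATAAA on either strand, and 1.99% held it on the strand of the gene starting 40 to 21 bases before the start. The Acsf2 window held 0 matches to TATAAA and 5 to GGGCGG, of which the 3 on the opposite strand overlapped each other. GGGCGG was found once in the Chad window and in 35.7% of all windows. TGGGAA, known from the Notch-pathway factor RBPJ, was found once in the Acsf2 window and 0 times in the Chad window, against 25.6% of all windows. Found in neither were the N-box (in 42.5% of all windows), the E-box (7.15%), the class C site (9.27%) and the AP-1 site (7.81%). The Chad window was 61% G or C with 13 CpG, the Acsf2 window 69.3% with 29, and the median window 52.7% with 7. These matches describe the letters of the windows and not sites in use. The stretches before the starts of the shorter Acsf2 transcripts near Chad were not searched.

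Expression is given as FPKM, which divides the fragments of a gene by its transcript length and by the size of the library. FPKM is a level per length, so Chad and Acsf2 can be set side by side. The commonest ratio of low FPKM values between libraries gave a relative depth of 0.886 to 1.13 over the 8 libraries. At that depth, 4835 of 5365 low genes (90.1%) fitted whole read numbers within 0.02 in every library. A gene above 0 in few libraries can fit by chance, since many read numbers were tried, so this share is no check of the read numbers. For both members all 8 values came out whole, so their read numbers are given beside FPKM; they are lower bounds if every value were a multiple of a larger number. A read of Chad was worth 1.98 times the FPKM of a read of Acsf2, beside a length ratio of the annotated transcripts of 1.88. In bulk libraries, fewer cells that express a gene and less RNA of it per cell cannot be told apart.

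In HSCs without RBCs, Chad was at 51.1 FPKM (1088 reads) in replicate 1 and 59 FPKM (1031 reads) in replicate 2. In HSCs with RBCs it was at 509 FPKM (9647 reads) and 403 FPKM (8646 reads). Both libraries with RBCs lay far above both without, and the higher of the pair with RBCs was replicate 1. In LSK cells without RBCs, Chad was at 68.4 FPKM (1296 reads) and 60.9 FPKM (1285 reads). In LSK cells with RBCs it was at 265 FPKM (4442 reads) and 236 FPKM (4196 reads). The LSK groups did not overlap either, and LSK cells with RBCs stayed below HSCs with RBCs. Among all genes by FPKM, Chad stood at rank 2464 and 2189 in HSCs without RBCs and at rank 225 and 275 with RBCs. In LSK cells it moved from rank 1886 and 2111 to rank 409 and 461.

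**Figure D2:**
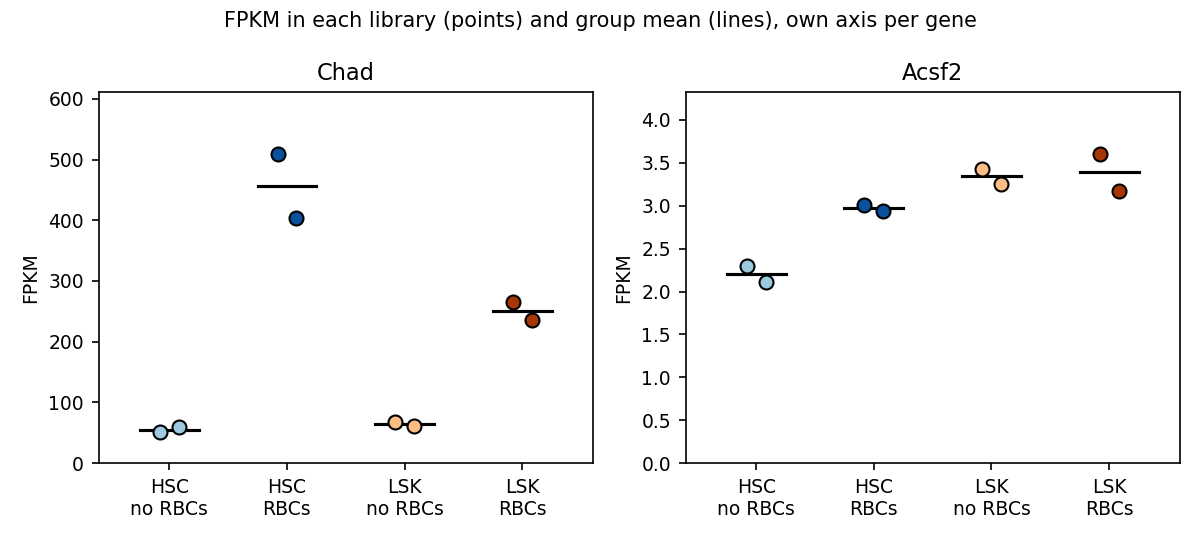
FPKM of Chad (left) and Acsf2 (right) in each library (points, 2 per group) with the group mean (lines), each gene on its own axis from 0. Chad spans 51.1 to 509 FPKM and separates libraries with and without RBCs in both populations, while Acsf2 spans 2.11 to 3.6 FPKM and its LSK groups overlap.

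The mean of Chad in HSCs was 55 ± 5.62 FPKM (SD, n = 2) without RBCs and 456 ± 74.9 FPKM (SD, n = 2) with RBCs. In LSK cells it was 64.7 ± 5.29 FPKM (SD, n = 2) without RBCs and 250.3 ± 20.5 FPKM (SD, n = 2) with RBCs. On the log2(FPKM + 1) scale used for all differences below, Chad differed by 3.02 in HSCs (standard error 0.121, 95% interval 2.75 to 3.30) and by 1.94 in LSK cells (standard error 0.121, 95% interval 1.66 to 2.21). These are 8.13-fold and 3.83-fold in FPKM + 1, and by size they ranked 13 and 28 from the highest of the 12003 genes tested. The change in LSK cells was 1.09 lower than that in HSCs on the log2 scale (standard error 0.171). The order of the levels from the highest was HSC with RBCs, LSK with RBCs, LSK without RBCs and HSC without RBCs. The last pair of neighbours in that order lay 0.23 apart (standard error 0.121), with 60.9 FPKM as the lowest LSK value and 59 FPKM as the highest HSC value, while LSK and HSC with RBCs lay 0.86 apart, LSK being lower (log2 difference -0.86). As these values chose Chad, no test is given for them.

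Acsf2 was far lower and changed little. In HSCs without RBCs it was at 2.29 FPKM (97 reads) and 2.11 FPKM (73 reads), and with RBCs at 3.01 FPKM (113 reads) and 2.94 FPKM (125 reads). Both HSC libraries with RBCs lay above both without, as did those of 19.9% of all genes tested. In LSK cells without RBCs it was at 3.43 FPKM (129 reads) and 3.25 FPKM (136 reads), and with RBCs at 3.6 FPKM (120 reads) and 3.17 FPKM (112 reads). The LSK libraries with RBCs held both the highest and the lowest Acsf2 value of the 4 LSK libraries.

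Group means of Acsf2 were 2.2 ± 0.133 FPKM (SD, n = 2) in HSCs without RBCs and 2.97 ± 0.0477 FPKM (SD, n = 2) with RBCs. In LSK cells they were 3.34 ± 0.129 FPKM (SD, n = 2) without RBCs and 3.39 ± 0.306 FPKM (SD, n = 2) with RBCs. The log2 difference with RBCs was 0.31 in HSCs (standard error 0.147, 95% interval -0.02 to 0.65), with a p of 0.0624 and an adjusted p of 0.404 by limma with Benjamini-Hochberg adjustment over the 12003 genes. A larger log2 difference was found in 7.22% of the genes tested. In LSK cells the log2 difference was 0.01 (standard error 0.147, 95% interval -0.32 to 0.35), with a limma adjusted p of 0.973. It turned to -0.02 without the second LSK library without RBCs and to -0.06 without the first LSK library with RBCs. Acsf2 passed the threshold (limma adjusted p under 0.05 and no less than a 2-fold change) in neither population, where 0.633% of the genes tested passed it in the higher direction in HSCs and 0.9% in LSK cells.

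The 95% intervals of Acsf2 ended below the change of Chad, which is given as a description because its values chose it. As folds of FPKM + 1, the interval of Acsf2 ended at 1.56 in HSCs and 1.27 in LSK cells. Chad changed 8.13-fold and 3.83-fold on that scale. These folds understate the change of a gene as low as Acsf2. As folds of mean FPKM, Acsf2 changed 1.35-fold in HSCs and 1.01-fold in LSK cells, and Chad 8.29-fold and 3.87-fold. Had Acsf2 changed by the latter folds, its mean with RBCs would have been 18.2 FPKM in HSCs and 12.9 FPKM in LSK cells. The rise of Chad was 401 FPKM in HSCs and that of Acsf2 0.773 FPKM, which is 0.193% of it. In LSK cells the rises were 186 FPKM and 0.0471 FPKM, or 0.0254%. Counted in reads at equal depth, the gain of Acsf2 was 0.382% of the gain of Chad in HSCs and 0.0504% in LSK cells.

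Counting error was a limit for Acsf2 and not for Chad. The rate of Acsf2 reads with RBCs was 1.34 times that without in HSCs (95% counting interval 1.10 to 1.65, from 238 and 170 reads) and 1.01 times in LSK cells (0.846 to 1.21, from 232 and 265 reads). For Chad, whose values chose it, these ratios were 8.29 (7.93 to 8.68) and 3.88 (3.71 to 4.05), as a description. These intervals cover counting error only, because reads without molecular identifiers are not independent molecules and the spread between libraries is left out. An exact permutation test of Acsf2 over the 8 libraries, with libraries exchanged within each population, gave a two-sided p of 0.167 for RBCs, where 0.0556 is the smallest that the 36 arrangements can give.

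The effects of RBCs on Acsf2 differed between LSK cells and HSCs by -0.30 on the log2 scale (standard error 0.208, limma adjusted p = 0.61), which missed the threshold that 0.108% of the genes tested passed in either direction. Over both populations the mean log2 difference was 0.16 (standard error 0.104, limma adjusted p = 0.457). Without RBCs, Acsf2 was higher in LSK cells than in HSCs by 0.44 on the log2 scale (standard error 0.147, 95% interval 0.11 to 0.77), with a p of 0.0149 and a limma adjusted p of 0.08, which missed the threshold that 2.66% of genes passed. Both LSK libraries lay above both HSC libraries, as in 28% of all genes tested. With RBCs the log2 difference was 0.14 (standard error 0.147, limma adjusted p = 0.522; 3.61% of genes passed), and LSK libraries again lay above HSC libraries, as in 33.7% of all genes tested. The exact permutation test for LSK cells against HSCs within each condition gave a two-sided p of 0.0556, the smallest it can give. The order of the Acsf2 levels from the highest was LSK with RBCs, LSK without RBCs, HSC with RBCs and HSC without RBCs, in which LSK without RBCs and HSC with RBCs were not tested against each other and the other neighbours did not differ past the threshold.

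The ratio of the genes therefore moved almost entirely with Chad. Without RBCs, the FPKM of Chad was 22.3 and 28 times that of Acsf2 in HSCs, and 19.9 and 18.7 times in LSK cells. With RBCs it was 169 and 137 times in HSCs, and 73.5 and 74.3 times in LSK cells. The 4 libraries without RBCs lay within a narrow range, and the HSC libraries with RBCs stood above the LSK libraries with RBCs. Acsf2 held a place between rank 9583 and rank 10368 by FPKM in all 8 libraries.

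Reads of an opposite-strand gene can be miscounted where a library does not mark strand. The library kits used here do not mark strand in their usual protocol, and the strand setting of the counting is not given in the sources used here. Because the exons of Chad and Acsf2 share 0 bases, a read within the exons of the one does not fall within the exons of the other in this annotation. Reads of unspliced Acsf2 RNA from the intron that holds Chad and reads of Chad that cross no exon junction cannot be told apart without strand. Reads across the junctions of the 4 exons of Chad could be, but the values are given per gene, so such reads were not counted. The FPKM of Acsf2 was at most 3.6 in every library, and that of Chad at least 51.1. These values do not measure unspliced Acsf2 RNA, and its part in the values of Chad was not tested.

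No tested gene around Chad was called with RBCs. Of the 21 genes annotated within 250 kb, 16 had values and 10 were tested, Acsf2 included, and by limma 0 of the 10 passed the threshold in either direction in either population (0.775% of all genes passed in either direction in HSCs and 1.01% in LSK cells). At an unadjusted p under 0.05 by limma there was 1 of the 10 in each population, where 13.7% of all genes tested were in HSCs and 18.6% in LSK cells. For the 10, the median log2 difference was 0.09 for HSCs and -0.06 for LSK cells, beside -0.01 and -0.01 over all genes. Acsf2 had the highest log2 difference of the 10 in HSCs, 0.31, and the next was 0.27 for Rsad1, which lies 15792 bases away on the - strand. In HSCs the lowest of the 10 was Abcc3, a transporter of organic anions, at -0.16. In LSK cells the range ran from -0.41 for Eme1, a subunit of a DNA endonuclease, to 0.09 for Mycbpap.

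Eme1 was at 15.7 and 16 FPKM in LSK cells without RBCs and at 11.4 and 12 FPKM with RBCs, a log2 difference of -0.41 (standard error 0.097, limma adjusted p = 0.0566). In HSCs it was at 15.9 and 16.1 FPKM without RBCs and at 17.9 and 16.5 FPKM with RBCs, a log2 difference of 0.10 (standard error 0.097, limma adjusted p = 0.744). The LSK groups of Eme1 did not overlap, yet the difference missed the threshold. How many of all genes were so separated in LSK cells was not counted. Lrrc59, a membrane protein of the endoplasmic reticulum, had the lowest unadjusted p in HSCs, with a log2 difference of 0.20 (standard error 0.0859, limma adjusted p = 0.34). The other tested neighbours, Luc7l3, Ankrd40, Mrpl27 and Xylt2, had log2 differences from -0.15 to 0.08 in HSCs, and in LSK cells from -0.17 to -0.03. Spata20 was listed at 0 in all 8 libraries, and Cacna1g, Epn3, Gm11541, Gm11545 and Tmem92 were at most 0.331 FPKM.

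**Figure D3:**
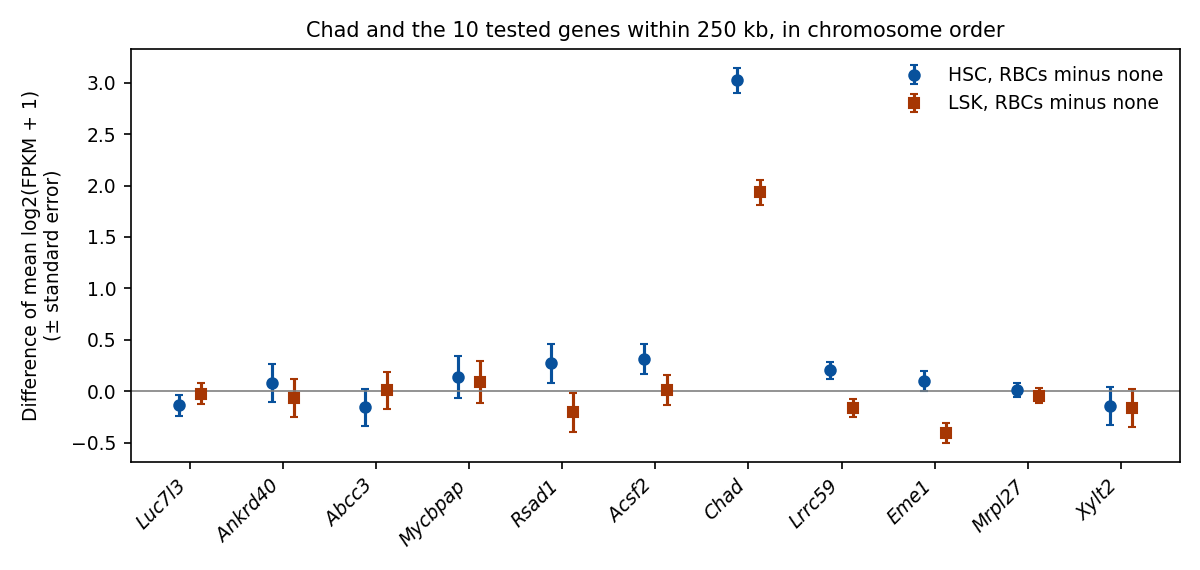
Difference of mean log2(FPKM + 1) with RBCs minus without, with its standard error, for Chad and the 10 tested genes within 250 kb, in chromosome order (HSC circles, LSK squares; 2 libraries per group). Chad stands at 3.02 and 1.94, and the 10 neighbours between -0.41 and 0.31.

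Genes that overlap a gene called higher on the opposite strand were looked at in the same way. In HSCs, 76 genes were called higher, 74 of them found in the annotation, and 8 of these had a tested partner on the other strand, in 9 pairs. In LSK cells, 108 were called, 106 found, and 16 had a partner, in 19 pairs. Of the partners, 0 of 9 and 0 of 19 were called by limma in either direction, where 0.775% and 1.01% of all genes were. At an unadjusted p under 0.05 by limma there were 3 of 9 and 5 of 19, where 13.7% and 18.6% of all genes were, and the median log2 difference of the partners was 0.12 and 0.01. Partners with a log2 difference above 0 numbered 8 of 9 in HSCs and 11 of 19 in LSK cells. Exons overlapped in 7 and 10 of the pairs, and 0 of those partners were called.

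In HSCs, 3 of the 9 partners had a larger log2 difference than Acsf2. The first was Gngt2, a G protein subunit, paired with Abi3 and sharing 234 exon bases with it, at 0.82 (standard error 0.11, limma adjusted p = 0.00551), which is under 2-fold. The others were Bcl9l, a cofactor of Wnt signalling paired with Cxcr5, at 0.63 (adjusted p = 0.0984), and Blcap, paired with Nnat, at 0.38 (adjusted p = 0.211). Blcap and Nnat have the layout of Acsf2 and Chad, a gene nested in a partner without a shared exon base. In LSK cells the pair Plxna4 and Plxna4os1 had that layout too, with a log2 difference of 1.11 for Plxna4os1 and 0.52 for Plxna4 (adjusted p = 0.257). The other partners in HSCs, Apex2, Hmgxb3, Ddx39, Zfp652 and Rprd1b, had log2 differences from -0.14 to 0.12. In LSK cells the largest were 1.08 for Tmie, paired with Als2cl (adjusted p = 0.0529), and -1.24 for the small nucleolar RNA Snora23 (adjusted p = 0.683). The rest, Zfp961, Ddx39, E130307A14Rik, Rpl3, Ipo7, Hmgxb3, Rbm4b, Wee1, Gramd1b, Zfp143, Rprd1b, Ttll5, Lamp1, Bcl9l and Gm13031, lay between -0.31 and 0.71 in LSK cells. Chad had the largest change among the genes with a partner in HSCs, and it was chosen for that change.

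**Figure D4:**
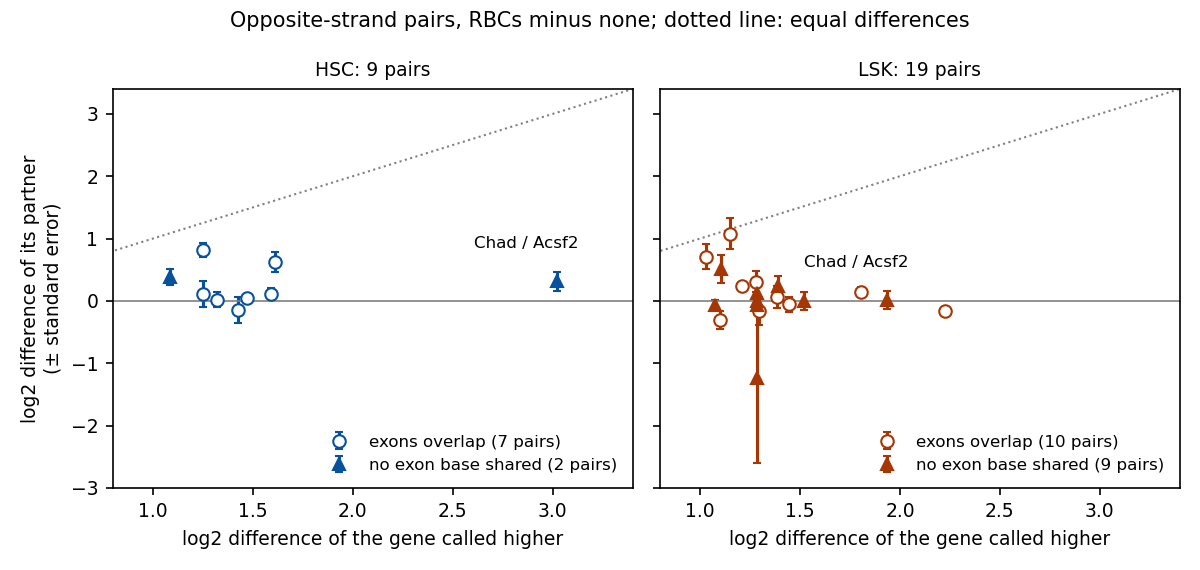
Log2 difference (RBCs minus none) of each gene called higher, on the x axis, against that of its opposite-strand partner with its standard error, on the y axis, for 9 pairs in HSC (left) and 19 in LSK (right); open circles share exon bases, filled triangles do not, and the dotted line marks equal differences. Acsf2 lies at 0.31 and 0.01 beside 3.02 and 1.94 for Chad.

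Among the relatives of Acsf2 and the genes of the pathway it feeds, 0 were called with RBCs, against a background in which few genes were. Of 24 acyl-CoA synthetases and fatty acid transport proteins listed, 13 were tested, and by limma 0 were called in either population, beside 0.775% (HSCs) and 1.01% (LSK cells) of all genes. At an unadjusted p under 0.05 there were 2 of the 13 in HSCs and 1 in LSK cells, beside 13.7% and 18.6% of all genes by limma. Their log2 differences had a median of 0.01 (HSCs) and -0.07 (LSK cells). The lowest unadjusted p-values in HSCs belonged to Slc27a1, which takes up fatty acids, at -0.39 (adjusted p = 0.239), to Slc27a6 at 0.46 (adjusted p = 0.294) and to Acsf2 itself. In LSK cells they belonged to Acsf3, a mitochondrial malonyl-CoA synthetase, at -0.64 (adjusted p = 0.179), to Acsl4 at 0.26 (adjusted p = 0.295) and to Slc27a3 at -0.35 (adjusted p = 0.383). Acsl5, which activates long-chain fatty acids, had the highest level of the family, 81.4 to 102 FPKM, beside 2.11 to 3.6 FPKM for Acsf2.

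Of 20 genes of mitochondrial fatty acid oxidation, 19 were tested and 0 were called by limma, beside the same 0.775% and 1.01% of all genes. At an unadjusted p under 0.05 by limma there were 2 of the 19 in HSCs and 1 in LSK cells, beside 13.7% and 18.6% of all genes, with a median log2 difference of -0.05 in HSCs and -0.07 in LSK cells. Acadl, the long-chain acyl-CoA dehydrogenase, was at 123 and 129 FPKM in LSK cells without RBCs and at 103 and 103 FPKM with RBCs. Its log2 difference of -0.29 (standard error 0.0628, limma adjusted p = 0.0436) was under 2-fold. Echs1 and Acadm had the lowest unadjusted p-values in HSCs, at -0.21 (adjusted p = 0.294) and -0.19 (adjusted p = 0.31), followed by Acaa2 at 0.18 (adjusted p = 0.367). Ech1, at -0.16 (adjusted p = 0.292), and Slc25a20, the carnitine carrier, at 0.31 (adjusted p = 0.319), followed Acadl in LSK cells.

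Most relatives of Chad were below the filter. Of 18 small leucine-rich repeat genes listed, 4 were tested, and the 3 beside Chad were not called in either population. Among all genes tested, 0.775% were called in either direction in HSCs and 1.01% in LSK cells. Omd, which encodes osteomodulin, was the next highest at 27.3 to 42.5 FPKM, with a log2 difference of 0.18 in HSCs (adjusted p = 0.419) and 0.33 in LSK cells (adjusted p = 0.0786). Chadl, which encodes a chondroadherin-like protein, was at 0.228 to 1.25 FPKM, with log2 differences of -0.55 in HSCs (adjusted p = 0.293) and -0.07 in LSK cells (adjusted p = 0.9). Bgn, which encodes biglycan, was at 0.595 to 2.27 FPKM, with log2 differences of 0.04 in HSCs and 0.07 in LSK cells. Of the 18, 3 were listed at 0 in all 8 libraries, namely Podn, Lum and Kera.

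Of 10 genes for proteins that chondroadherin binds or attaches cells through, 5 were tested. Itgb1, the integrin beta1 chain, was at 75.4 to 97.3 FPKM in the 8 libraries, while Itga2, the alpha2 chain, was at 0.0379 to 0.455 FPKM and was not tested. Sdc1, the heparan sulfate proteoglycan syndecan-1, was at 7.51 and 8.19 FPKM in LSK cells without RBCs and at 21.8 and 25.2 FPKM with RBCs. It rose in LSK cells by 1.47 on the log2 scale (standard error 0.149, limma adjusted p = 0.0011). In HSCs it was at 4.13 and 3.25 FPKM without RBCs and at 3.39 and 2.88 FPKM with RBCs, a log2 difference of -0.18 (adjusted p = 0.693). Sdc4 was at 2.16 and 2.83 FPKM in LSK cells without RBCs and at 5.96 and 6.19 FPKM with RBCs, a log2 difference of 1.02 that missed the threshold (standard error 0.275, limma adjusted p = 0.0853). Of the others tested, Sdc2 was at -0.38 in HSCs (adjusted p = 0.29) and 0.26 in LSK cells (adjusted p = 0.409), and Sdc3 at -0.19 and -0.34. The collagen genes of the list, Col2a1, Col6a1, Col6a2 and Col6a3, were at most 0.173 FPKM.

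Of the other markers of cartilage and bone, the tissues known for Chad, all but Col1a2 were below the filter. Of 14 listed, Bglap, Sp7 and Ibsp were listed at 0 in all libraries, and Acan, Col2a1 and Sox9 were at most 0.0434 FPKM. The list summed to 1.02 to 2.49 FPKM in LSK cells and 2.73 to 3.11 FPKM in HSCs without RBCs, and to 3.59 to 4.15 and 6.16 to 6.51 FPKM with RBCs. Col1a2, which encodes a chain of type I collagen, was at 1.21 and 1.7 FPKM in HSCs without RBCs and at 4.79 and 5.17 FPKM with RBCs, and was called higher with a log2 difference of 1.29 (adjusted p = 0.0342). In LSK cells it was at 0.709 and 1.69 FPKM without RBCs and at 3.88 and 2.35 FPKM with RBCs, a log2 difference of 0.91 (adjusted p = 0.0967). In both populations its libraries with RBCs lay above those without, as did those of 19.9% of all genes tested in HSCs. The share in LSK cells was not counted. The 4 marrow stroma markers summed to 3.41 to 8.03 FPKM. Lepr, the leptin receptor, was at 1.58 and 1.82 FPKM in HSCs without RBCs and at 4.56 and 6.22 FPKM with RBCs, and was called higher with a log2 difference of 1.23 (adjusted p = 0.00979). In LSK cells it was at 0.38 and 0.299 FPKM without RBCs and at 1.83 and 1.53 FPKM with RBCs, a log2 difference of 0.998 with an adjusted p of 0.0219, just under the 2-fold that a call needs. Pdgfrb had log2 differences of -0.26 in HSCs and -0.25 in LSK cells (adjusted p = 0.526 and 0.407). Cxcl12 and Pdgfra were at most 0.34 FPKM.

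Markers of other blood cells moved with RBCs beside Chad. The 6 RBC markers with values summed to 1.55 to 1.9 FPKM in HSCs without RBCs and 90.9 to 123 FPKM with RBCs, and to 1.15 to 1.96 and 36.9 to 45.1 FPKM in LSK cells. Slc4a1 was at most 0.0186 FPKM. Hba-a1 was called higher in both populations, by 5.99 on the log2 scale in HSCs (limma adjusted p = 3.82e-05) and 4.16 in LSK cells (adjusted p = 0.000466). Alas2, the first enzyme of heme synthesis in red cells, was called higher in HSCs with a log2 difference of 1.43 (adjusted p = 0.0174) and differed by 0.67 in LSK cells (adjusted p = 0.187). Hba-a2 had log2 differences of 0.82 and 1.16 (adjusted p = 0.689 and 0.402). The 9 neutrophil markers summed to 8.54 to 10.6 FPKM in HSCs without RBCs and to 46 and 254 FPKM with RBCs, the higher value in replicate 1, and in LSK cells to 128 to 220 and 363 to 568 FPKM. Chad changed by 2.85 on the log2 scale in HSCs without that replicate 1. The library with RBCs that was left, at 46 FPKM of these markers, still lay above both without RBCs. The part of neutrophils in the change of Chad was not tested. S100a8 and S100a9, which form calprotectin, were called higher in HSCs, by 3.64 on the log2 scale (adjusted p = 0.0283) and 4.32 (adjusted p = 0.0193). S100a8 was at 5.7 and 2.32 FPKM in HSCs without RBCs and at 148 and 22.3 FPKM with RBCs. In LSK cells Retnlg was called higher by 3.07 (adjusted p = 0.0104) and Mmp8, a neutrophil collagenase, by 1.14 (adjusted p = 0.0434), while the log2 difference of Lcn2 was 1.35 (adjusted p = 0.223). In HSCs the log2 difference of Retnlg was 1.68 (adjusted p = 0.129).

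The 7 monocyte or macrophage markers summed to 65.5 to 77.3 FPKM in LSK cells without RBCs and 149 to 151 FPKM with RBCs, and to 89.3 to 111 FPKM in HSCs of both conditions. Most of the HSC sum was Cd68, at 85.9 to 107 FPKM, with a log2 difference of 0.03 in HSCs and 0.44 in LSK cells (adjusted p = 0.956 and 0.0744). Csf1r, the receptor of macrophage colony-stimulating factor, was at 2.53 and 2.81 FPKM in HSCs without RBCs and at 7.07 and 9.37 FPKM with RBCs. It was called higher in HSCs by 1.32 on the log2 scale (adjusted p = 0.0121) and in LSK cells by 1.44 (adjusted p = 0.00753). Ccr2, a chemokine receptor of monocytes, was called higher in LSK cells by 2.37 (adjusted p = 0.000577). In HSCs Ccr2 was at 0.84 and 0.976 FPKM without RBCs and at 1.87 and 2.09 FPKM with RBCs, a log2 difference of 0.64 (adjusted p = 0.157).

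The 6 platelet markers summed to 79 to 223 FPKM. Gp1ba was called higher in HSCs by 1.15 on the log2 scale (adjusted p = 0.0136) and differed by 0.62 in LSK cells (adjusted p = 0.116). Pf4 was called lower in LSK cells, with a log2 difference of -2.06 (adjusted p = 0.0376). Next by p were Itga2b at 0.35 and Gp9 at -0.57 in HSCs, and Ppbp at -0.89 in LSK cells (adjusted p = 0.219, 0.231 and 0.233). Of 3 B cell, 3 T cell and 2 NK cell markers, which summed to at most 1.99, 0.521 and 1.54 FPKM, only Cd79a of B cells and Klrb1c of NK cells passed the filter. Neither was called, with log2 differences of 0.12 and -0.06 in HSCs (adjusted p = 0.928 and 0.956) and 0.00 and -0.27 in LSK cells (adjusted p = 0.998 and 0.64). The part of these cells in the values of Chad was not tested.

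Markers of the gates were checked against the labels. Kit was at 90.8 to 137 FPKM in the 8 libraries. Flt3 was at 15.4 to 22.5 FPKM in HSCs and 89.1 to 101 FPKM in LSK cells, Cd48 at 16 to 42.7 and 124 to 184 FPKM, and Slamf1, which encodes CD150, at 5.5 to 10.7 and 3.09 to 4.63 FPKM. The ranges of all 3 did not overlap between the populations. Among all genes tested, both LSK libraries lay above both HSC libraries in 28% without RBCs and in 33.7% with RBCs. The shares for the lower direction and for both conditions at once were not counted. Cd48 fell in HSCs with RBCs by 1.08 on the log2 scale (adjusted p = 0.00694) and had a log2 difference of -0.38 in LSK cells (adjusted p = 0.224). Log2 differences under 2-fold in HSCs with a limma adjusted p under 0.05 were those of Cd34, Procr and Kit. They were 0.54 (adjusted p = 0.0028), -0.52 (adjusted p = 0.0149) and -0.37 (adjusted p = 0.0214). Slamf1, at -0.70 (adjusted p = 0.0596), and Ly6a, which encodes Sca-1, at 0.59 (adjusted p = 0.26), were above that p. In LSK cells Kit differed by -0.28 (adjusted p = 0.0555) and Ly6a by -0.66 (adjusted p = 0.153).

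The genes whose pattern was most like that of Chad were found by Pearson's r of log2(FPKM + 1) over the 8 libraries, which fall into 4 groups, so r is a description. They were Hes1 and Skil (r = 0.994 each), Hba-a1 (0.991), Tcf24 (0.982), P4hb (0.981), Tubb6 (0.979), Src (0.975) and Cdkn2d (0.974). Hes1, a transcriptional repressor downstream of Notch, was at 1.8 and 2.46 FPKM in HSCs without RBCs and 21.3 and 16.4 FPKM with RBCs. In LSK cells it was at 3.56 and 2.26 FPKM without RBCs and 13 and 12 FPKM with RBCs. As with Chad, HSCs with RBCs held the highest values and LSK cells with RBCs the next. Hba-a1 encodes an alpha globin and has a near-identical copy, Hba-a2, so its reads may have been split. P4hb, a protein disulfide isomerase, stayed between 315 and 360 FPKM, so a high r does not imply a large change. Acsf2 ranked 1785 of the genes tested by its r with Chad, 0.415.

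The genes most like Acsf2 were Kif23 (r = 0.982), a kinesin of cell division, Cd34 (0.971), a surface protein of progenitors, Fam151b (0.970), Pcyox1l (0.970) and Spns3 (0.970). The most opposite were Vmp1 (r = -0.988), Procr (-0.984), Erp27 (-0.973), Slamf1 (-0.973) and Apbb1 (-0.969). Cd34 was lowest in HSCs without RBCs, at 324 and 316 FPKM, higher in HSCs with RBCs, at 476 and 455 FPKM, and highest in LSK cells, at 514 to 597 FPKM. Procr, the surface receptor EPCR that marks stem cells, ran the other way, from 58.2 and 65.3 FPKM in HSCs without RBCs to 42.5 and 43 FPKM with RBCs and 33.4 to 38.9 FPKM in LSK cells. Chad ranked 3345 by its r with Acsf2.

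**Figure D5:**
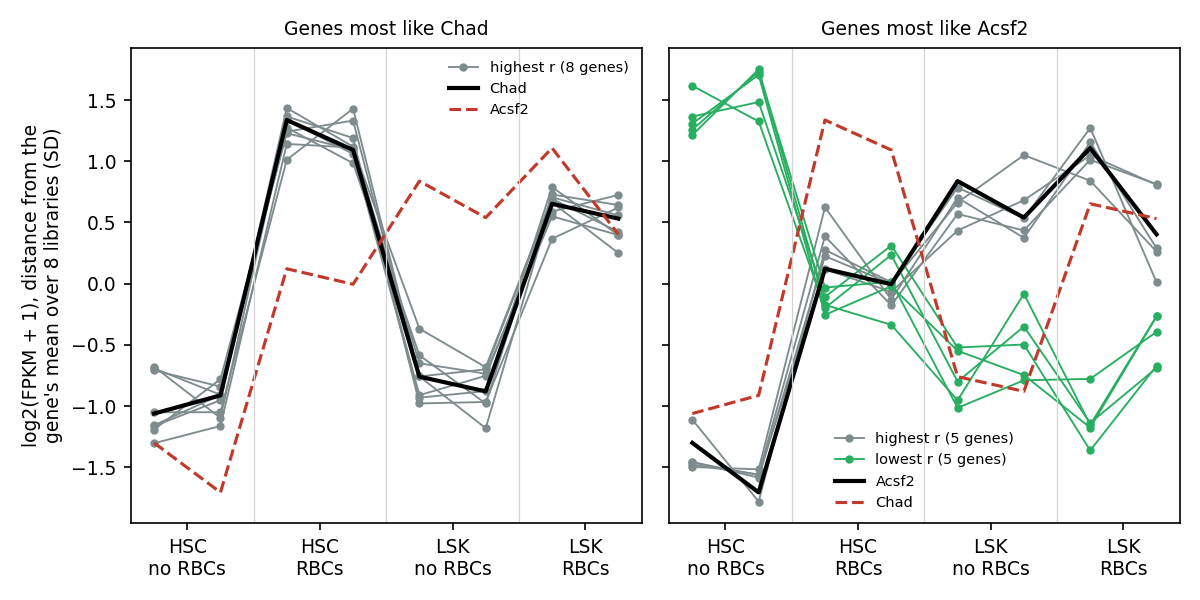
Log2(FPKM + 1) in each of the 8 libraries as the distance from the gene's own mean in SD, with lines that only join the points of a gene: left, Chad (black), the 8 genes with the highest r to it (grey) and Acsf2 (dashed red); right, Acsf2 (black), the 5 genes with the highest (grey) and the 5 with the lowest r (green) and Chad (dashed red). Chad separates the libraries by RBCs, and Acsf2 sets the HSC libraries without RBCs apart from the other 6.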

How the data were processed

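RNA of sorted cells was made into full-length cDNA (SMART-Seq HT) and Nextera XT libraries, which per their usual protocol do not mark strand. FPKM values were deposited by the authors, a value for each gene symbol in each library, and the submitters' processing notes name TopHat2 2.1.1, Bowtie2 2.2.8, SAMtools 0.1.18, Cuffdiff 2.2.1 and mm10; the annotation is not given in the sources used here. Absolute depth is unknown, and relative depth was read from the commonest ratio of low FPKM values between libraries.

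Groups came from the labels. log2(FPKM + 1) of the 12003 genes with at least 1 FPKM in at least 2 libraries was fitted by limma 3.58.1 (R 4.3.3), with 4 group means, a trend and no block (4 residual degrees of freedom, prior 5.18). Genes were called at 2-fold or more with a p under 0.05 after Benjamini-Hochberg adjustment. For 2 libraries against 2, the smallest p of an exact permutation test is 0.333. Differences on this scale understate those of low genes. On simulated data, the fit and the read numbers were tested before use.

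Positions came from GENCODE M21, in which 23268 of the 24346 symbols were found once, and promoters from RefSeq. Protein sequences were not analysed here. Genes named are the members, genes within 250 kb, list members called or (where under 3 were called) the 3 with the lowest p, opposite-strand partners and the genes most like each member by r. Members, lists and rules were chosen with earlier results of these data known. Alternatives covered pseudocount, filter, scaling, samples, block, trend, threshold and each library left out.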

Additional observations from a re-analysis of the deposited data

Results flagged for a closer look

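Sdc1, syndecan-1, was the 1 gene of the 121 tested genes in the lists, neighbourhood, pairs and patterns above for which the difference between the RBC effects in LSK cells and HSCs passed the threshold: the effect was 1.64 higher in LSK cells on the log2 scale (standard error 0.21, limma adjusted p = 0.0259; 0.108% of all genes passed in either direction). Both LSK libraries of Sdc1 with RBCs lay above both without, a separation not counted over all genes, and its HSC groups overlapped. Chad was among the 121 through the lists, and its own result is not given as a test.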

How the results depend on the processing

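Acsf2 passed the threshold in no comparison under any alternative run. Its log2 difference in HSCs ran from 0.15 (pseudocount 5) to 0.42 (pseudocount 0.1). In the fits that kept 2 libraries per group, its limma adjusted p ran from 0.185 without the trend to 0.508 with the 4 HSC libraries only. Without the trend, the unadjusted limma p was 0.0102 in HSCs. For the mean over both populations it was 0.0366 (adjusted p = 0.243). In LSK cells, where it was 0.01, it reversed to -0.0448 under quantile normalization, to -0.02 without the second LSK library without RBCs and to -0.057 without the first LSK library with RBCs, with a range of -0.057 to 0.0853 over the libraries left out; the cause of the reversal under quantile normalization was not tested. Without the trend, Acsf2 in LSK cells against HSCs, both without RBCs, had an adjusted p of 0.0253 but stayed under 2-fold. Chad kept its direction throughout, with 2.85 to 3.19 in HSCs and 1.85 to 2.02 in LSK cells.

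The number of genes called moved with the settings. In HSCs and LSK cells, 76 and 108 were higher in the main analysis, 31 and 43 with a pseudocount of 5, 46 and 63 with all genes above 0 and 189 and 278 with no fold threshold. Those lower were 17 and 13, against 5 and 5, 4 and 7, and 115 and 136, with 27 in HSCs at a pseudocount of 0.1 and 8 in LSK cells without the trend. The count higher in LSK cells was 63 without the first LSK library without RBCs, and 53 and 62 without the first and the second LSK library with RBCs. Acsf2 did not pass a filter of 5 FPKM.

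The replicate numbers share no stated source, so the libraries were not paired by them in the main analysis. Correlations of same-numbered deviations ran from -0.067 to 0.095, which cannot show whether same-numbered libraries shared a mouse or a culture. With the replicate number as a block, Acsf2 had a limma adjusted p of 0.46 in HSCs and 0.975 in LSK cells. It stayed uncalled, and 74 and 96 genes were called higher. The few reads of Acsf2, 73 to 136 per library, limit the change that could be seen.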
